A study of Mus musculus with 10 samples.

Results

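The genes of fatty acid oxidation and ketogenesis were followed in primary mouse hepatocytes exposed to free fatty acids (FFAs). A list of 40 genes was taken by name, and all 40 were found among the 18055 genes listed in at least 1 library. They comprised 20 mitochondrial, 12 peroxisomal, 2 ketogenic and 6 PPAR-responsive genes, and all 40 had enough reads to be tested. Hepatocytes of C57BL/6 mice were cultured in 5 groups of 2 libraries each. The Vehicle group received no FFA. The PA group received palmitate, a saturated FFA, at 200 μM for 24 h, and the LA group received linoleate, a polyunsaturated FFA, at 12 μM for 24 h. The PA+NTP and LA+NTP groups received Neurotropin (NTP), a drug used against chronic pain, at 0.4 NU/mL from 1 h before the same FFA. No group received NTP without an FFA, and both FFAs were given at different doses, so a difference between them is one between these treatments as given. The labels do not say whether the 2 libraries of a group came from separate cultures or animals, and the p-values measure only the spread between these libraries.

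Hepatocytes oxidise long-chain fatty acids in mitochondria after the carnitine shuttle has carried them across the membrane, and each turn of the cycle passes through an acyl-CoA dehydrogenase, a hydratase, a hydroxyacyl-CoA dehydrogenase and a thiolase. Very long and branched chains are shortened first in peroxisomes, and surplus acetyl-CoA leaves the liver as ketone bodies. Many of these genes are targets of PPARα, a nuclear receptor that binds fatty acids and is encoded by Ppara.

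Library totals ranged from 13142588 to 60046937 expected counts, and the members took between 0.266% and 0.389% of them. The hepatocyte genes Alb, Apoa1 and Fgb were abundant in all 10 libraries, with Alb between 1929 and 2818 FPKM, whereas Cps1 did not exceed 4.61 FPKM. Tat did not exceed 8.51 FPKM, and Cyp2e1 lay between 15.2 and 20.7 FPKM. Of the lymphoid markers, Cd3e did not exceed 0.03 FPKM, Ncr1 0.02 FPKM and Cd79a 0.19 FPKM, while Ptprc, a marker of all leukocytes, lay between 0.32 and 0.75 FPKM. Of the Kupffer cell list, Cd68 gave most of the sum (122 to 287 FPKM) while Clec4f, Vsig4 and Timd4 stayed at or under 0.3 FPKM, Marco reached 4.59 FPKM and Cd5l reached 3.94 FPKM. The summed endothelial list lay between 30.9 and 48.2 FPKM and the stellate and fibroblast list between 24.8 and 32.4 FPKM. The summed cholangiocyte list lay between 407 and 704 FPKM, most of it from Spp1 (398 to 691 FPKM). Sox9 reached 13.5 FPKM and Krt19 did not exceed 0.92 FPKM. In bulk RNA, fewer cells of a type and less RNA per cell cannot be told apart. The base composition of the libraries moved with the groups: across 13925 genes, the Spearman correlation between a gene's GC content and its relative level was negative with PA (-0.473 and -0.484) and with LA (-0.575 and -0.569) and lay between 0.346 and 0.576 in the other 6.

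The promoters of the members that the comparisons turn on are given here, since these genes moved in opposite directions or, for Acaa1a and Acaa1b, are paralogs of which 1 moved. RefSeq promoter windows of GRCm38.p6, from 250 bases before to 50 bases after a transcription start, matched 34 of the 40 members by symbol. That start is not always the outer end of the gene. Scp2, on the minus strand, is listed up to base 108144971, and Acaa1a, on the plus strand, from base 119341028. The windows of both, printed below, lie inside these spans. Crat, Acaa2, Decr1, Hsd17b4, Acat1 and Vnn1 had no entry. Each window is written 5′ to 3′ on the strand of the gene, with CpG dinucleotides in capitals.
Etfa, chr9:55512194-55512493, minus strand: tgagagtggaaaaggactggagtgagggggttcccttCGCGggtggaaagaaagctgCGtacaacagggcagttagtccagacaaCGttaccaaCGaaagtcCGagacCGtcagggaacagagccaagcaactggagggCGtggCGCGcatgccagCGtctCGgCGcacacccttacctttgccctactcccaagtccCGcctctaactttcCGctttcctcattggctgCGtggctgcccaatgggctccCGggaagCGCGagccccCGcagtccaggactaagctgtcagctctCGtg
Acadl, chr1:66863260-66863559, minus strand: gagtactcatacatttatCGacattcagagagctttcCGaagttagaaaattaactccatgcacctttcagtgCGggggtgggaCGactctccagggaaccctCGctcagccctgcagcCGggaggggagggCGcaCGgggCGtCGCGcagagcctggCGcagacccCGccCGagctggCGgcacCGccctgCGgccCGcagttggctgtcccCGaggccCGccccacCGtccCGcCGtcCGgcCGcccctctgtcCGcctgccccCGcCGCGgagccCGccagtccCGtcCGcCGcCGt
Acads, chr5:115119297-115119596, minus strand: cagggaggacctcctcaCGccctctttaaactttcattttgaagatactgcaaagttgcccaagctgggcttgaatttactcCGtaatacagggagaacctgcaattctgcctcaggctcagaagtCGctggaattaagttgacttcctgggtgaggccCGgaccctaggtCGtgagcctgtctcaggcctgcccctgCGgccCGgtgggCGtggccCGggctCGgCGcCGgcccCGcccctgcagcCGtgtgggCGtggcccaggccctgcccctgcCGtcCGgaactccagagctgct
Scp2, chr4:108118498-108118797, minus strand: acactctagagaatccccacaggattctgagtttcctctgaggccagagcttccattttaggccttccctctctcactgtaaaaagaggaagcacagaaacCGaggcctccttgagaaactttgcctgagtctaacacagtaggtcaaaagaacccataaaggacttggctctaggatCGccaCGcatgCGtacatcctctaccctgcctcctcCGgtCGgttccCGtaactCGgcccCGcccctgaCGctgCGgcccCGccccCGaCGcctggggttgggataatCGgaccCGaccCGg
Acaa1a, chr9:119341044-119341343, plus strand: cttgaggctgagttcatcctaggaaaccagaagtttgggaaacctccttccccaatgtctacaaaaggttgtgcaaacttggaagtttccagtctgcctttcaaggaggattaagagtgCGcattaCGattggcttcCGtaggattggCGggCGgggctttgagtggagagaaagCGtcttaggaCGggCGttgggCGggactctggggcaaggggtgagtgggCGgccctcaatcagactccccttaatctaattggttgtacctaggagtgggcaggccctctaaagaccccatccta
Acaa1b, chr9:119157044-119157343, minus strand: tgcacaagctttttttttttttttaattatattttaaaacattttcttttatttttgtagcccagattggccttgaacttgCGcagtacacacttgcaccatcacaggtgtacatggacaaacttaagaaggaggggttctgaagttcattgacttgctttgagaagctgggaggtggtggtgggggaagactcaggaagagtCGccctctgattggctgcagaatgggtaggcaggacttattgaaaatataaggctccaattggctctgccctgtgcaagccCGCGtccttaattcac
The window of Acadl held 34 CpG dinucleotides and that of Etfa held 21. Acads and Scp2 held 17 each, Acaa1a held 10, and Acaa1b held 4. The median over all promoter windows was 7.

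Both strands of these windows were searched for 3 motifs. The DR1 element bound by PPARα (AGGTCANAGGTCA, with at most 1 mismatch) was in 0 of 36 windows of members and in 0.554% of all 32851 windows. The element of the ERR receptors (TCAAGGTCA) was in 0 of 36 and in 0.423% of all windows. The NRF1 element (GCGCATGCGC) was in 4 of 36 windows and in 0.971% of all. The stretches around the NRF1 matches are shown with the match in capitals.
Etfdh, chr3:79628876-79628905, minus strand: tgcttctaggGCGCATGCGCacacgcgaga
Acad12, chr5:121618963-121618992, minus strand: ggcccaagtcGCGCATGCGCtttcgtcagt
Acad10, chr5:121660499-121660528, minus strand: ggccccgggcGCGCATGCGCtttcgacagc
Ppara, chr15:85735735-85735764, plus strand: gggctcggtgGCGCATGCGCgcggactagg
The match began 128 bases before the transcription start of the window in Etfdh, which passes electrons to ubiquinone. It began 44 bases before that start in Acad12, 8 bases before it in Acad10 and 31 bases before it in Ppara. In Acad10 and Ppara that start and the match lie inside the listed span of the gene. Acad10 and Acad12 encode acyl-CoA dehydrogenases of neighbouring genes on chromosome 5. Their windows are alike over long stretches, so their matches are not separate occurrences. The window of Acad10 held 45 CpG dinucleotides, that of Acad12 37, that of Ppara 30 and that of Etfdh 17, against a median of 7 over all windows. The motif itself holds CpG, so its count is not read as particular to the members. No p-value is given for any of these counts, and none of these 4 genes passed the test against Vehicle with either FFA. A match is a description of the letters and not a measured site.

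Levels are given in FPKM, which corrects for transcript length. Over the 10 libraries, Crot, which moves medium-chain acyl groups out of peroxisomes, had the highest mean level of the members at 138 FPKM. Etfa, the α-subunit of the flavoprotein that takes electrons from the acyl-CoA dehydrogenases, was the highest of the mitochondrial members at 105 FPKM. The lowest member was the acyl-CoA thioesterase Acot1 at 0.828 FPKM. Of the ketogenic members, Acat1, which condenses acetyl-CoA, had a mean level of 14.98 FPKM and Bdh1, which converts acetoacetate to β-hydroxybutyrate, had 8.52 FPKM. Vnn1, a pantetheinase, had the highest level of the PPAR-responsive members at 27.5 FPKM, and Ppara itself was at 2.88 FPKM.

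**Figure D1:**
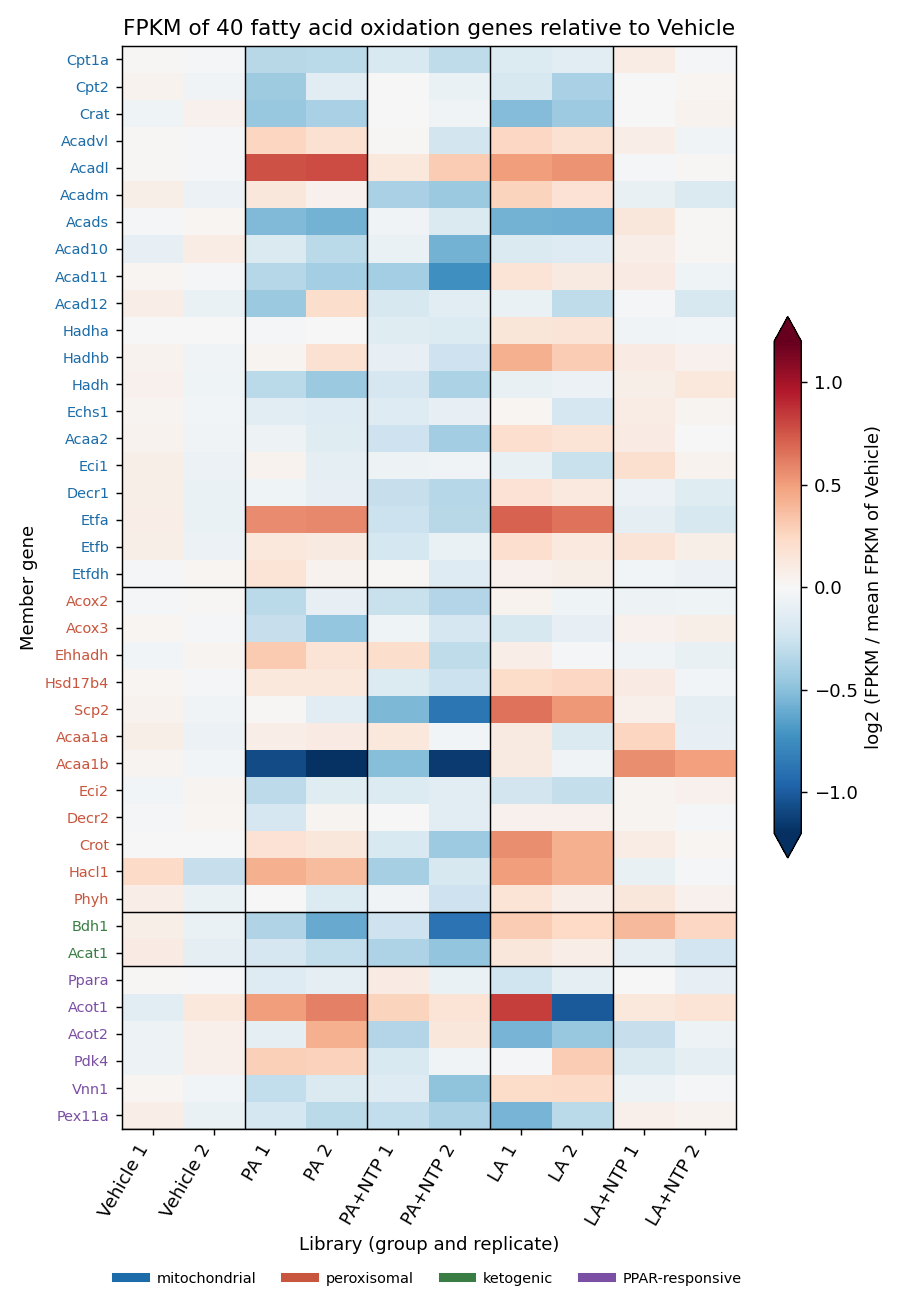
Heat map of the level of each of the 40 members (rows) in each of the 10 libraries (columns), as log2 of its FPKM over the mean FPKM of the 2 Vehicle libraries, with gene names coloured by member group. Etfa and Acadl are red in all 4 libraries of PA and LA, Acaa1b is blue in the PA and PA+NTP libraries and red in both LA+NTP libraries, and most rows are blue in PA+NTP.

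PA changed few members by 1.5-fold, and it moved them in both directions. Among the members, Acadl and Etfa rose and Acaa1b fell by at least 1.5-fold with an adjusted p under 0.05, which is the rule for a called gene. The 2 members called higher are to be read against 6% of all 14097 genes tested, and the 1 called lower against 8.92%. Counted by the adjusted p alone, 6 members were higher and 10 lower, against 23.5% and 22% of all genes. The 6 became 2 without Vehicle replicate 2 and 3 without Vehicle replicate 1, PA replicate 1 or PA replicate 2. It became 4 without either LA library. The median log2 fold change of the 40 members was -0.04, and that of all genes was -0.01. Without Vehicle replicate 1 the members' median was 0.02.

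Acadl (gene ID 11363), the long-chain acyl-CoA dehydrogenase, stood at 64.2 and 62.8 FPKM in Vehicle and at 107.8 and 109 FPKM in PA. Both PA libraries were higher than every library of the other groups. Its log2 fold change was 0.81 ± 0.07 (SE) with an adjusted p of 1.02e-06, and this call held under 21 alternatives (11 settings and 10 left-out libraries). These leave out the NOISeq rule of the study, which also asks for 1.5-fold. Recoded here on FPKM from its published definition, it called 0 members in every comparison of groups. It is not the study's own run, which listed genes changed by each FFA, and the share of all genes that the recoded rule called is not given. It used no filter on low levels, and its noise came from the replicate pairs of all genes listed in the groups compared. The 0 is therefore not read as a result about the members. Etfa (gene ID 110842) rose from 95.2 and 85.0 FPKM in Vehicle to 133.6 and 134.6 FPKM in PA, by 0.61 ± 0.07 on the log2 scale (adjusted p = 6.74e-06). The groups did not overlap, but its log2 fold change was 0.40 once the GC trend was removed, which is under 1.5-fold.

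Acaa1b (gene ID 235674), a thiolase of the peroxisome, had 11.1 and 10.6 FPKM in Vehicle and 5.13 and 4.76 FPKM in PA. All 4 values were apart by group. Its log2 fold change was -1.11 ± 0.16 (adjusted p = 7.26e-05), and the call held in those 21 alternatives. Its paralog Acaa1a was at 26.6 and 24.1 FPKM in Vehicle and at 26.9 and 27.2 FPKM in PA, with a log2 fold change of 0.13 ± 0.12 (adjusted p = 0.396). Of the 31-base stretches of the Acaa1b transcripts, 40.01% also occur in Acaa1a, so reads between them could have been split and both levels are uncertain.

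The members that were lower in PA by the adjusted p alone included Cpt1a, Bdh1 and Acat1. Cpt2 did not pass, with a log2 fold change of -0.22 ± 0.10 (adjusted p = 0.0798). Cpt1a, the rate-limiting step of carnitine-dependent entry, fell from 34.6 and 34.0 FPKM to 27.3 and 27.4 FPKM, by 0.29 on the log2 scale (SE 0.06, adjusted p = 0.0011). Both ketogenic members were lower: Bdh1 was at 9.21 and 8.32 FPKM in Vehicle and at 6.84 and 5.76 FPKM in PA, with a log2 fold change of -0.46 ± 0.15 (adjusted p = 0.0232), and the log2 fold change of Acat1 was -0.22 ± 0.08 (adjusted p = 0.0456). The others were Crat, Acads, Acad11, Hadh, Acox3 and Eci2. Bdh1, Crat, Hadh, Crot and the other members without a call in an FFA or NTP comparison are named after their values were seen. Ppara was at 3.05 and 2.98 FPKM in Vehicle and at 2.70 and 2.78 FPKM in PA, and its log2 fold change of -0.11 ± 0.09 did not pass (adjusted p = 0.348).

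The hepatocyte markers also differed between these groups: their summed level was between 4322 and 4581 FPKM in Vehicle and between 3159 and 3496 FPKM in PA. Apoa1 stood at 547 and 440.4 FPKM in Vehicle and at 208 and 181 FPKM in PA, and Hnf4a, a receptor of hepatocyte identity, at 67.1 and 66.6 FPKM against 37.2 and 41.6 FPKM. Markers of other cells moved too: 5 of 7 endothelial, 5 of 7 stellate and fibroblast and 3 of 4 cholangiocyte markers tested were lower in PA by the adjusted p. Of 6 Kupffer markers tested, Marco rose (0.67 and 0.58 FPKM to 3.95 and 2.90 FPKM) and Cd5l fell, and Ptprc rose (0.40 and 0.52 FPKM to 0.70 and 0.75 FPKM). The part of any of these markers in the members' results was not tested.

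LA raised more members than it lowered, most of them by less than 1.5-fold. Etfa and Scp2 were called higher, against 3.53% of all genes, and 0 members were called lower, against 7.11%. With no fold threshold, 14 members had an adjusted p under 0.05 and were higher and 5 were lower, against 20.8% and 20.5% of all genes. The 14 became 6 without Vehicle replicate 2 and 7 without LA replicate 1. The 5 became 2 without either Vehicle library and 3 without either library of LA or of LA+NTP. Of the mitochondrial members, 9 of 20 were higher and 2 lower. The median log2 fold change of the members was 0.13, against -0.01 for all genes, and it was 0.07 with the GC trend removed.

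Etfa was at 147 and 141 FPKM in LA, above both Vehicle libraries, with a log2 fold change of 0.73 ± 0.06 (adjusted p = 2.9e-06). Scp2 (gene ID 20280), which encodes a peroxisomal thiolase and the sterol carrier protein, rose from 98.2 and 92.3 FPKM in Vehicle to 149.8 and 137 FPKM in LA. Its log2 fold change was 0.64 ± 0.09 (adjusted p = 0.000107). With the GC trend removed, the log2 fold changes were 0.50 for Etfa and 0.40 for Scp2, and neither was called. Of the 31-base stretches of Scp2, 33.4% are shared with its pseudogene Scp2-ps2.

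Acadl was at 89.8 and 92.3 FPKM in LA and rose by 0.57 ± 0.07 on the log2 scale (adjusted p = 2.22e-05). Crot rose from 128 and 129 FPKM to 189.7 and 173 FPKM, by 0.54 ± 0.07 (adjusted p = 5.92e-05). Hadha and Hadhb, the subunits of the mitochondrial trifunctional protein, were both higher, with log2 fold changes of 0.19 ± 0.05 and 0.42 ± 0.07 (adjusted p = 0.00872 and 0.000483). Their promoter windows overlap by 228 bases on opposite strands, and 19.5% of the 31-base stretches of Hadhb occur in the pseudogene Gm13910.

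The members that were lower in LA were Acads, Crat, Eci2, Acot2 and Pex11a. Acads (gene ID 11409), the short-chain acyl-CoA dehydrogenase, fell from 36.5 and 37.8 FPKM in Vehicle to 25.1 and 24.9 FPKM in LA, and stood at 25.7 and 25.1 FPKM in PA. The log2 fold change was -0.53 ± 0.07 in LA (adjusted p = 4.28e-05) and -0.52 ± 0.07 in PA (adjusted p = 4.13e-05). Crat, the carnitine acetyltransferase, was at 10.5 and 11.3 FPKM in Vehicle and at 7.59 and 8.08 FPKM in LA, with a log2 fold change of -0.44 ± 0.07 (adjusted p = 0.000242). With the GC trend removed, 0 members were lower in LA by the adjusted p, and the share of all genes in that setting is not given. In these libraries Cd68 was also lower than in Vehicle (122 and 126 FPKM against 203 FPKM in both), as were 3 of 7 endothelial, 2 of 7 stellate and fibroblast, 1 of 4 cholangiocyte and 1 of 8 hepatocyte markers, and their part was not tested.

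The comparisons of PA and LA with Vehicle share the Vehicle libraries and are set side by side only. Higher in both were Acadvl, Acadl, Etfa, Hsd17b4, Crot and Hacl1, and lower in both were Crat, Acads and Eci2. Of the 14 members that passed in neither, Ppara, Acot1, Pdk4, Cpt2, Ehhadh and Acox2 are examples. The median GC content was 46.6% in the transcripts of the 6 members higher in both and 56.1% in the 3 lower in both, with 50.6% over all 40 members and 50.1% over all genes tested. Among the members, the Spearman correlation between GC content and log2 fold change was -0.356 in PA and -0.566 in LA (n = 40 genes, which share their libraries). Over the 13925 genes tested with a GC content it was -0.523 and -0.641. With the GC trend removed, Crot in PA turned to -0.06 and Decr1 in LA to -0.06 on the log2 scale, and neither passed.

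**Figure D2:**
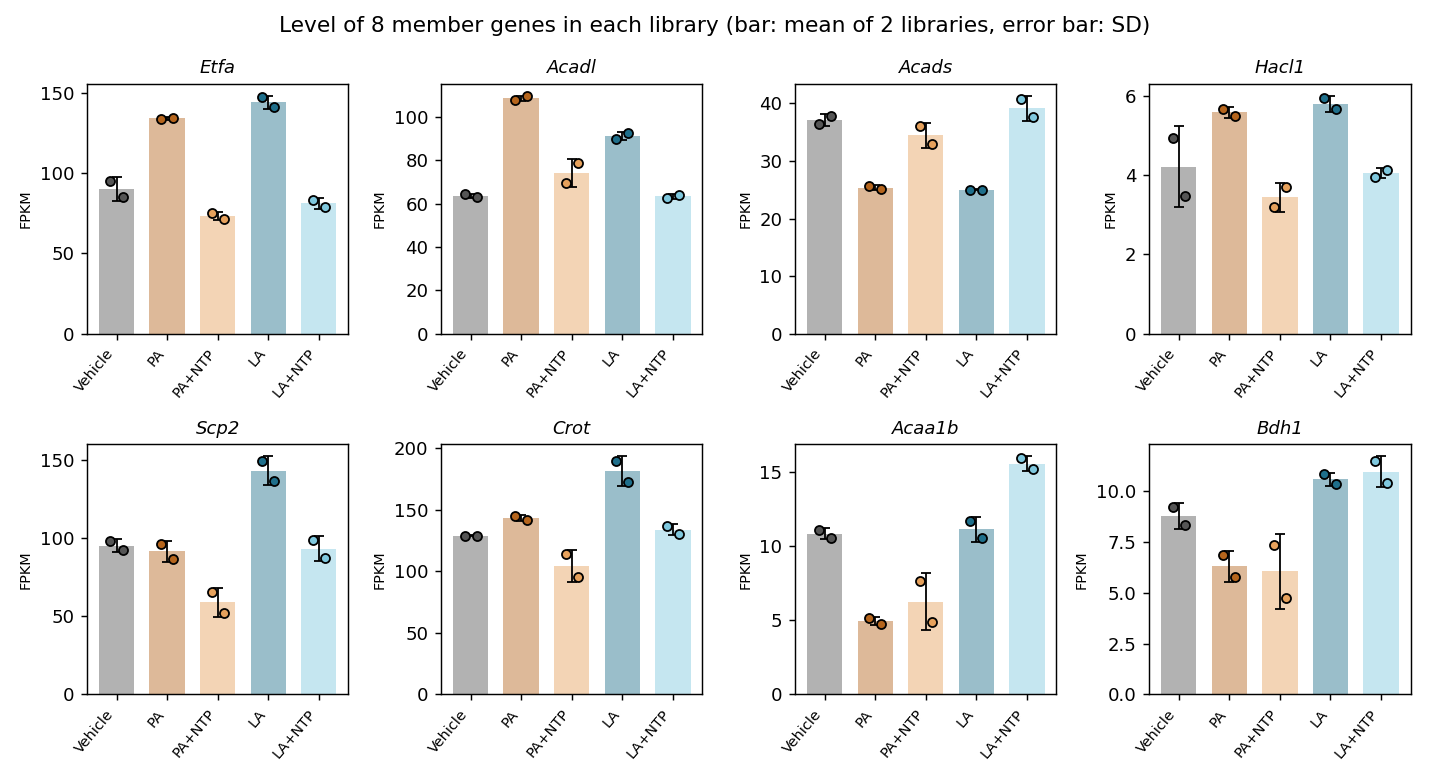
Level of 8 members in FPKM (vertical axes, from 0) in the 5 groups: bars are means of 2 libraries, error bars are SD, and points are single libraries. Etfa is highest in PA and LA, Scp2 is highest in LA and lowest in PA+NTP, and Acaa1b and Bdh1 are lower in PA and PA+NTP than in LA and LA+NTP.

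NTP in the presence of PA lowered 4 members by at least 1.5-fold and raised 0. Those lower than in PA were Acadl, Etfa, Hacl1 and Scp2, against 5.11% of all genes called lower, while 8.74% were called higher. By the adjusted p alone, 17 members were lower and 2 higher, Acads and Crat, against 23% and 21.7% of all genes. Of the 40 members, 31 had a negative log2 fold change, and the median was -0.20, against 0.01 for all genes.

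Etfa was at 75.2 and 71.8 FPKM in PA+NTP against 133.6 and 134.6 FPKM in PA, with a log2 fold change of -0.93 ± 0.07 (adjusted p = 3.54e-07). This call held in those 21 alternatives, and the value was -0.70 with the GC trend removed. Acadl went to 69.4 and 78.6 FPKM, a log2 fold change of -0.61 ± 0.07 (adjusted p = 7.69e-06). It lost the 1.5-fold call under 7 of the 21 alternatives, with -0.39 once the GC trend was removed and -0.50 without PA+NTP replicate 1.

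Scp2 was at 65.7 and 52.2 FPKM in PA+NTP and at 96.4 and 87.0 FPKM in PA, a log2 fold change of -0.69 ± 0.09 (adjusted p = 4.66e-05). The values did not overlap, and the log2 fold change was -0.46 with the GC trend removed and -0.57 without PA+NTP replicate 2, both under 1.5-fold. Hacl1 (gene ID 56794), which cleaves 2-hydroxyacyl-CoA in the α-oxidation of branched chains, was at 5.67 and 5.48 FPKM in PA and at 3.18 and 3.69 FPKM in PA+NTP. Its log2 fold change was -0.75 ± 0.15 (adjusted p = 0.000863), and 28.8% of its 31-base stretches are shared with the gene model Gm49387. Cpt1a had 30.1 and 27.8 FPKM in PA+NTP, with a log2 fold change against PA of 0.02 ± 0.06 (adjusted p = 0.777), and Acaa1b had 7.61 and 4.88 FPKM, with 0.29 ± 0.16 (adjusted p = 0.165).

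NTP in the presence of LA lowered Etfa and Scp2 and raised Acads by at least 1.5-fold, against 7.57% of all genes called lower and 11.7% called higher. By the adjusted p alone, 14 members were lower and 8 higher, against 25.6% and 25.9%. The 8 became 3 without LA replicate 2, 4 without LA+NTP replicate 1, 5 without LA+NTP replicate 2 and 2 with the GC trend removed. The share of all genes with the trend removed is not given. The median log2 fold change of the members was -0.09, against 0.01 for all genes. The members' shares were below those of all genes in the higher direction and above them in the lower direction by the adjusted p, with no test of that difference.

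Etfa was at 83.6 and 78.7 FPKM in LA+NTP, against 147 and 141 FPKM in LA, with a log2 fold change of -0.87 ± 0.06 (adjusted p = 2.05e-07). Scp2 was at 99.0 and 87.6 FPKM, with a log2 fold change of -0.66 ± 0.09 (adjusted p = 4.06e-05). Both groups were apart for each gene. Acads was at 40.7 and 37.6 FPKM against 25.1 and 24.9 FPKM in LA, a log2 fold change of 0.61 ± 0.07 (adjusted p = 4.96e-06). With the GC trend removed, the values were -0.58 for Etfa, -0.36 for Scp2 and -0.0125 for Acads, so that 0 of the 3 were called and Acads turned in direction. Decr1 (from -0.29 to 0.03) and Acaa1b (from 0.44 to -0.12) also turned. The Spearman correlation of the members' log2 fold changes with GC content was 0.734 here and 0.552 for PA+NTP against PA (n = 40 genes). By the adjusted p, 4 of 7 endothelial, 3 of 7 stellate and fibroblast, 3 of 8 hepatocyte and 1 of 4 cholangiocyte markers were higher in LA+NTP than in LA, and Cd68 stood at 177 and 190.4 FPKM. For PA+NTP against PA these numbers were 1, 3, 3 and 2, with 2 of 6 Kupffer markers higher, and the part of these markers was not tested.

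The effects of NTP under PA and under LA share no library. By the adjusted p, 13 members were lower in both, which is 13 of the 17 under PA and 13 of the 14 under LA, and Acads and Crat were higher in both. Of all genes lower, 87.2% of those under PA and 78.4% of those under LA were lower in both, and 20.1% of all genes tested were, against 32.5% of the members. With the GC trend removed, Acads turned to -0.08 under PA and to -0.0125 under LA, and 0 members were higher under PA by the adjusted p. The share of all genes in that setting is not given. The signs were the same in 32 of 40 members (80.0%) and in 84.2% of all genes tested. Tested directly, the difference between both NTP effects was called in 0 members and in 0% of all genes. At an unadjusted p under 0.05 there were 4 members (Acads, Eci1, Acot2 and Pex11a) and 1029 genes, and DESeq2 called 4 genes and 0 members. With no filter on low counts, Acot2 was called.

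**Figure D3:**
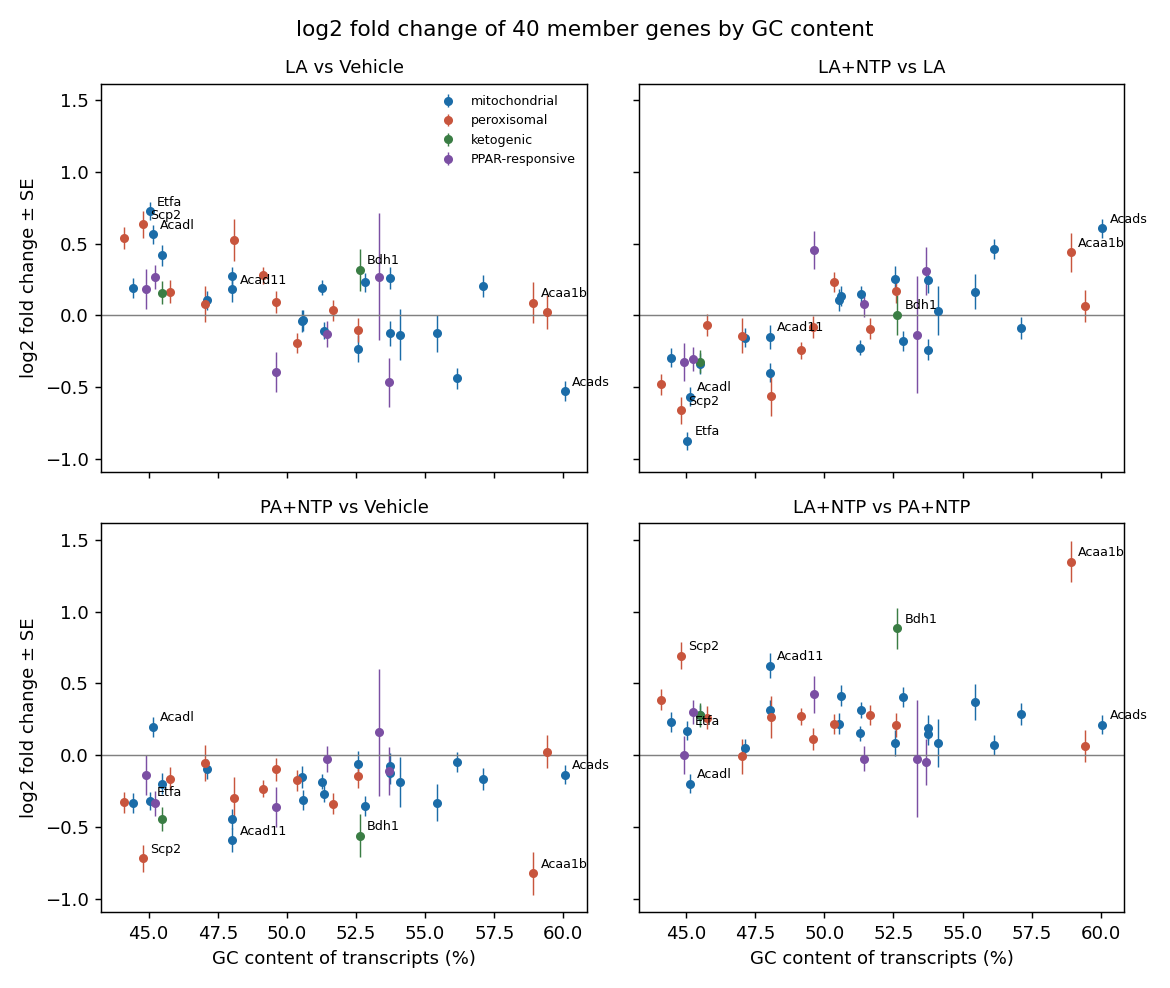
Log2 fold change (± SE) of the 40 members against the GC content of their transcripts (%), in 4 comparisons, coloured by member group. The members slope down from low to high GC content for LA against Vehicle (Spearman -0.566) and up for LA+NTP against LA (0.734), with a weaker slope for PA+NTP against Vehicle (0.257) and for LA+NTP against PA+NTP (-0.086).

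Compared with Vehicle, 16 of the 40 members were lower in PA+NTP, and in LA+NTP 0 passed the test. In PA+NTP, 0 were higher and 24 did not pass the adjusted p, and the 16 and 0 stand against 5.61% and 4.5% of all genes. Of the 40 log2 fold changes, 37 were negative, with a median of -0.18 against 0.01 for all genes, and the median was -0.19 with the GC trend removed. Acaa1b, Acad11 and Scp2 were called lower, against 1.64% of all genes, and 0 were called higher, against 1.21%. The count of 16 rested in part on single libraries: it was 4 without Vehicle replicate 1, 9 without Vehicle replicate 2 and 10 without PA+NTP replicate 2, while the median over all left-out libraries stayed between -0.24 and -0.18.

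Scp2 fell to 65.7 and 52.2 FPKM in PA+NTP from 98.2 and 92.3 FPKM in Vehicle, with a log2 fold change of -0.72 ± 0.09 (adjusted p = 0.000286), and this call held in those 21 alternatives. Acaa1b was at 7.61 and 4.88 FPKM against 11.1 and 10.6 FPKM, with -0.82 ± 0.15 (adjusted p = 0.00329). The 2 libraries of PA+NTP differed most here, by a ratio of 1.56, and without replicate 2 the value was -0.56, under 1.5-fold. Acad11 (gene ID 102632), an acyl-CoA dehydrogenase of long chains, was at 24.2 and 19.3 FPKM against 32.6 and 31.7 FPKM, with -0.59 ± 0.09 (adjusted p = 0.000623). Its call was lost in 6 of 21 alternatives.

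Another 13 members were lower in PA+NTP than in Vehicle by the adjusted p alone. They were the mitochondrial Cpt1a, Acadm, Hadha, Hadh, Acaa2, Decr1 and Etfa (12 of the 20 mitochondrial members did not pass), the peroxisomal Acox2, Hsd17b4 and Crot, the ketogenic Bdh1 and Acat1, and Vnn1. Acadm, the medium-chain acyl-CoA dehydrogenase, was at 109 and 98.9 FPKM in Vehicle and at 79.3 and 76.3 FPKM in PA+NTP, with a log2 fold change of -0.44 ± 0.07 (adjusted p = 0.000818). The summed level of the 40 members was 1215 and 1309 FPKM in PA+NTP, lower than in all other 8 libraries, which ran from 1441 to 1745 FPKM. In the same libraries the hepatocyte markers summed to between 3574 and 4199 FPKM, under both Vehicle libraries, with Apoa1 at 276 and 231 FPKM. Of 6 Kupffer markers tested, 3 were higher than in Vehicle by the adjusted p and 0 lower, with Marco at 3.36 and 4.59 FPKM and Cd68 at 259 and 287 FPKM. Of 7 endothelial markers 3 were lower, with Kdr called. The part of these markers was not tested.

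In LA+NTP, 0 members were called and 0 passed the adjusted p, where 0.0355% and 0.0567% of all genes were called lower and higher and 0.0922% and 0.192% passed the adjusted p. At an unadjusted p under 0.05 there were 3 members and 2014 genes, and DESeq2 called 5 genes and 0 members. The median of the members was 0.03. The log2 fold change farthest from 0 was that of Acaa1b, at 0.53 ± 0.14 (adjusted p = 0.109), with 15.9 and 15.2 FPKM in LA+NTP.

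**Figure D4:**
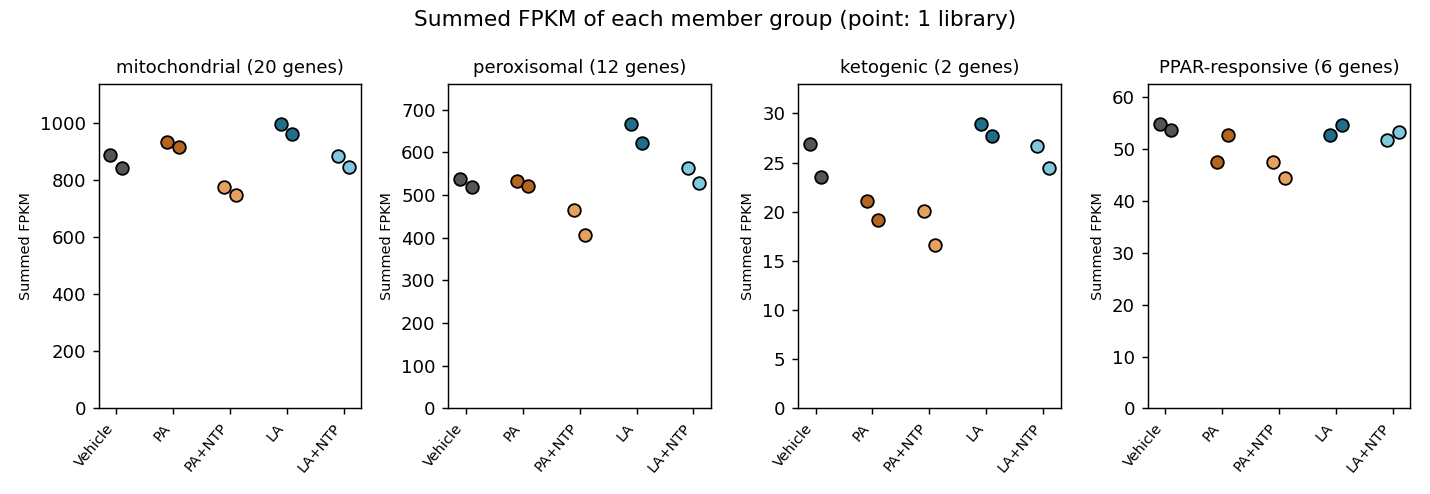
Summed FPKM of each member group (vertical axes, from 0) in the 10 libraries, with 1 point per library. The PA+NTP libraries are the lowest for the mitochondrial (747 and 776 FPKM) and peroxisomal (406 and 465 FPKM) members, and the LA libraries are the highest for both.

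Both ketogenic members were higher with LA than with PA, with and without NTP. Of the peroxisomal members 3 of 12 were higher without NTP and 6 of 12 with it, and of the mitochondrial members 5 of 20 (with 1 lower) and 9 of 20, all by the adjusted p. LA was higher than PA for Acaa1b, Bdh1 and Scp2 and lower for Acot2 by the full rule, against 2.04% of all genes called higher and 1.18% called lower. By the adjusted p alone, 11 members were higher and 2 lower, against 5.54% and 5.59%. LA+NTP was higher than PA+NTP for Acaa1b, Acad11, Bdh1 and Scp2 and lower for 0, against 2.45% and 1.38%. Without the fold threshold, 19 were higher and 0 lower, against 7.77% and 6.99% of all genes. The median log2 fold change of the members was 0.11 without NTP and 0.23 with it, against -0.01 for all genes in both. The count of 19 was 8 without LA+NTP replicate 1, 10 without LA+NTP replicate 2 and 11 without PA+NTP replicate 2. The count of 11 was 5 without PA replicate 2 or LA replicate 1, and between 8 and 13 without any other library.

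These 2 comparisons share no library. All 11 members higher in LA than in PA were also higher in LA+NTP than in PA+NTP, which is 11 of 11 and 11 of 19. Of all genes, 73.2% of those higher without NTP and 52.2% of those higher with it were higher in both. They were Acaa1b, Acaa2, Acad11, Acat1, Bdh1, Crot, Decr1, Hadh, Hadhb, Scp2 and Vnn1. The Pearson correlation of the log2 fold changes of the 40 members was 0.879 and that of all 14097 genes was 0.408, and the signs were the same in 75.0% of members and 69.2% of all genes. These are descriptions over genes that share their libraries.

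Acaa1b was at 11.7 and 10.5 FPKM in LA against 5.13 and 4.76 FPKM in PA, with a log2 fold change of 1.20 ± 0.16 (adjusted p = 0.000268), and at 15.9 and 15.2 FPKM in LA+NTP against 7.61 and 4.88 FPKM in PA+NTP, with 1.35 ± 0.14 (adjusted p = 3.71e-05). The 4 libraries with LA were all above the 4 with PA, and both calls held in those 21 alternatives. Acaa1a did not pass in either, with -0.10 ± 0.12 and 0.06 ± 0.11 (adjusted p = 0.639 and 0.764). Bdh1 was at 10.8 and 10.3 FPKM in LA against 6.84 and 5.76 FPKM in PA, with a log2 fold change of 0.78 ± 0.15 (adjusted p = 0.00424). It was at 11.5 and 10.4 FPKM in LA+NTP against 7.36 and 4.75 FPKM in PA+NTP, with 0.88 ± 0.14 (adjusted p = 0.000947), and this second call held in those 21 alternatives. The first was lost without PA replicate 2 (adjusted p = 0.103).

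Scp2 differed by 0.66 ± 0.09 between LA and PA (adjusted p = 0.000519) and by 0.69 ± 0.09 between LA+NTP and PA+NTP (adjusted p = 0.000243). Acat1 followed the same order, with 0.38 ± 0.08 and 0.28 ± 0.08 (adjusted p = 0.00967 and 0.0305), and was at 18.1 and 17.4 FPKM in LA and at 14.3 and 13.4 FPKM in PA. Acadl went the other way without NTP, with -0.24 ± 0.07 (adjusted p = 0.0323), and with NTP its -0.20 ± 0.07 did not pass (adjusted p = 0.0621). Acot2, a mitochondrial acyl-CoA thioesterase, was at 6.14 and 6.61 FPKM in LA and at 8.42 and 12.2 FPKM in PA, with -0.72 ± 0.17 (adjusted p = 0.0158). The PA libraries of Acot2 were far apart, and the value without PA replicate 2 was -0.39 (adjusted p = 0.299). Of its 31-base stretches, 29.9% are shared with Acot1. The hepatocyte marker sums were higher with LA (4445 to 4526 FPKM, and 4979 to 5242 FPKM with NTP) than with PA. Of 6 Kupffer markers tested, Cd68 and Marco were lower in LA than in PA (Marco 0.42 and 0.94 FPKM against 3.95 and 2.90 FPKM) and Cd5l was higher (2.66 and 2.69 FPKM against 1.16 and 1.31 FPKM). By the adjusted p, 3 of 7 stellate and fibroblast and 2 of 4 cholangiocyte markers were higher in LA than in PA, and 4 of 7 endothelial markers were higher in LA+NTP than in PA+NTP. The part of all these markers was not tested.

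**Figure D5:**
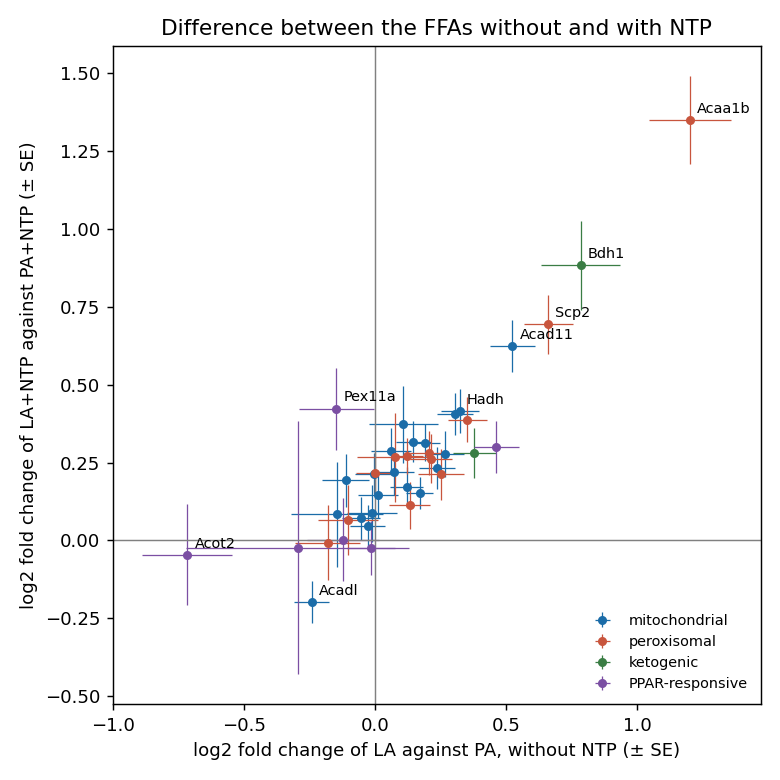
Log2 fold change of LA against PA without NTP (horizontal axis) and of LA+NTP against PA+NTP (vertical axis) for the 40 members, with SE as bars and colour by member group. Acaa1b, Bdh1, Scp2 and Acad11 lie at the upper right, and Acot2 lies at the left near 0 on the vertical axis.

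The PPAR-responsive members did not move as a group. With PA, 0 of 6 passed the adjusted p, and with LA, Vnn1 was higher and Acot2 and Pex11a, a peroxisome division gene, were lower. Ppara did not pass in any of the 9 comparisons, with log2 fold changes between -0.13 and 0.09. Pdk4, a kinase that inhibits pyruvate dehydrogenase, was at 2.43 and 2.65 FPKM in Vehicle and at 3.10 and 3.07 FPKM in PA (log2 fold change 0.31 ± 0.14, adjusted p = 0.0895), and fell in PA+NTP to 2.24 and 2.46 FPKM (-0.45 ± 0.14, adjusted p = 0.0166). Acot1 was too low to read, with 1.25 and 0.35 FPKM in the 2 LA libraries, and rested on between 13 and 74 expected counts a library. Its paralog Acot2 is described above. Acad10 and Acad12, which share 22.9% and 21.3% of their 31-base stretches with each other, were at 4.85 and 3.83 FPKM on average and did not pass in any comparison.

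Other genes of the pathway were read from companion lists. Of 15 genes of fatty acid transport and activation, 4 were lower and 4 higher in PA by the adjusted p, and 6 were lower and 2 higher in PA+NTP than in PA. The shares of all genes were 22% and 23.5% in PA and 23% and 21.7% in PA+NTP against PA, and they apply to the lists that follow too. Cd36, the fatty acid translocase, fell with NTP under PA from 39.7 to 24.8 FPKM (mean of 2 libraries), a log2 fold change of -0.74 ± 0.06 (adjusted p = 6.81e-07), and under LA by 0.69 on the log2 scale (SE 0.06, adjusted p = 4.82e-07). Its transcripts have a GC content of 38.4%, against a median of 50.1% over all genes tested, and the GC trend was not removed from these values. Abcd2, a peroxisomal transporter of very long chains, was at a mean of 1.13 FPKM in Vehicle and 0.585 FPKM in PA, with -0.88 ± 0.26 (adjusted p = 0.0116).

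Of 12 further genes of oxidation, ketone body use and thioester cleavage that were tested (Acot3 was not), 3 were lower and 4 higher in PA, and 5 were lower and 0 higher in PA+NTP than in PA. Bdh2 rose in PA from 7.98 to 12.8 FPKM, with 0.71 ± 0.12 (adjusted p = 0.000271), and Slc16a1, a carrier of monocarboxylates that include ketone bodies, from 13.8 to 21.4 FPKM, with 0.67 ± 0.06 (adjusted p = 2.64e-06). Acot4, a peroxisomal thioesterase, fell with NTP under LA from 3.16 to 1.88 FPKM, with -0.79 ± 0.15 (adjusted p = 0.000436). Oxct1, which activates acetoacetate in tissues that burn ketone bodies, was at 6.71 FPKM in Vehicle, 4.38 in PA, 3.69 in PA+NTP, 7.52 in LA and 6.33 in LA+NTP. It was named after its values were seen, and its difference between LA and PA was 0.80 ± 0.13 (adjusted p = 0.001).

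Of 12 other PPAR targets, 3 were lower and 1 higher in PA by the adjusted p, and 0 passed in LA. Cyp4a10, Cyp4a14, Cyp4a31, Cyp4a32, Cyp4a12b and Fgf21 had mean levels of at most 0.558 FPKM, so the test could show little for them. Cyp4a12a, a fatty acid ω-hydroxylase, was at 1.64 FPKM in Vehicle and 0.765 FPKM in PA, with -1.06 ± 0.22 (adjusted p = 0.00138), and G0s2, an inhibitor of lipolysis, went from 5.12 to 3.35 FPKM, with -0.60 ± 0.21 (adjusted p = 0.03). Cyp4a12a was called higher in PA+NTP than in PA, at a mean of 1.35 FPKM, against 8.74% of all genes. In PA, 9 of the 12 log2 fold changes were negative and 3 positive. Plin2 and Angptl4, named after their values were seen, had means of 461 and 18.7 FPKM in Vehicle and 546 and 20.1 FPKM in PA. Of 9 nuclear receptors and coactivators, 5 were lower and 1 higher in each FFA group, and 6 were higher and 2 lower in LA+NTP than in LA. In PA+NTP against PA, 4 were higher and 2 lower, against 21.7% and 23% of all genes. Esrra, Ppard and Ppargc1b were called higher under both FFAs, where 8.74% (PA) and 11.7% (LA) of all genes were called higher. The shares of all genes were 20.5% lower and 20.8% higher in LA, and 25.9% higher and 25.6% lower in LA+NTP against LA. Ppargc1b is a coactivator of mitochondrial genes that the study itself measured in these treatments. It was at 1.22 FPKM in Vehicle, 0.80 in PA, 1.685 in PA+NTP, 0.57 in LA and 1.30 in LA+NTP. With NTP under LA it rose by 1.17 ± 0.20 on the log2 scale (adjusted p = 0.000212). Esrra, the estrogen-related receptor α, was at 11.9 FPKM in Vehicle, 7.10 in PA, 12.5 in PA+NTP, 7.07 in LA and 12.6 in LA+NTP, and rose with NTP under LA by 0.80 ± 0.10 (adjusted p = 1.15e-05). Ppard rose with NTP under LA by 0.83 ± 0.09 (adjusted p = 2.78e-06). The GC content of the transcripts was 61.8% for Esrra, 59.8% for Ppard and 57.8% for Ppargc1b. Over all genes, GC content and the log2 fold change of LA+NTP against LA had a Spearman correlation of 0.681. The GC trend was not removed from the values of the companion genes, and its part in them was not tested.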

How the data were processed

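RNA was sequenced in 10 libraries of primary hepatocytes, 2 per group, with groups and replicate numbers taken from the labels and the NTP dose from the study's methods. The authors aligned reads with HISAT and Bowtie2 and quantified genes with RSEM, and the submitters' processing notes name mm10. Tool versions were not given in the sources used here. The authors deposited, per library, the expected count of each gene, not normalized between libraries, and the FPKM, scaled for length and library size. Genes are listed by NCBI gene ID at an FPKM of at least 0.01, and a gene missing from a library was taken as 0. Of 18055 IDs, 17998 were matched by ID and 4 by accession to the RefSeq table of GRCm38.p6. GC content came from GENCODE M21 transcripts (98.4% of genes).

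The quasi-likelihood test of edgeR 4.0.16 (R 4.3.3) was run on the rounded expected counts: filterByExpr (14097 genes kept, 3958 dropped), TMM (factors 0.977 to 1.037) and the 5 groups as 1 factor over all libraries. Values are log2 fold changes with SE and Benjamini-Hochberg adjusted p over all genes tested. A gene was called at an adjusted p under 0.05 and at least 1.5-fold. The scripts were tested on simulated data. The settings varied were the tool (DESeq2 1.42.0), scaling by library size alone, leaving low genes unfiltered, a mean FPKM of at least 1, limma 3.58.1 on log2(FPKM + 1) and log2(FPKM + 0.1), only the groups compared, a replicate block, removal of the GC trend, no fold threshold, the NOISeq rule of the study (probability 0.95) and leaving out each library. The NOISeq rule was recoded from its published definition and applied to FPKM.

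Members and companion lists were chosen with earlier results of these data known. Named by rule were the members called in a comparison of an FFA with Vehicle or of NTP with its FFA, the most abundant member of each group, Ppara, Cpt1a, paralog pairs, and at most 3 called genes per companion list. Both comparisons of LA with PA were added after seeing the data. The replicates of each group differed by more than sampling noise. Same-numbered libraries deviated together with r between -0.069 and 0.127, so the numbers were not taken as pairs. S100a8 and S100a9, fixed as markers, were not analysed here.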

Additional observations from a re-analysis of the deposited data

Results flagged for a closer look

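The groups given LA and those given PA differed in 8 results, each tested directly in the fit over all genes. Both comparisons were added after seeing the data, and some genes occur in both. In 1 of them both groups also received NTP. Between LA and PA, the log2 fold change was 0.66 for Scp2, 1.20 for Acaa1b, 0.78 for Bdh1 and -0.72 for Acot2. Of all genes, 2.04% were called higher there and 1.18% lower. The call of Acot2 held in 16 of 21 alternatives, and its value was -0.39 without PA replicate 2. Between LA+NTP and PA+NTP, the log2 fold change was 0.62 for Acad11, 0.69 for Scp2, 1.35 for Acaa1b and 0.88 for Bdh1. Of all genes, 2.45% were called higher there and 1.38% lower. The call of Acad11 held in 18 of 21 alternatives. For Acaa1b, Scp2 and Bdh1, the libraries with LA were above those with PA both without and with NTP. The doses differed (200 μM and 12 μM), and the hepatocyte markers Apoa1, Hnf4a and Serpina1a were also higher with LA, whose part was not tested. With 2 libraries a group, no group was large enough to test for a library that stood apart.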

How the results depend on the processing

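Of the calls of members, those of Acadl (PA against Vehicle), Etfa (PA+NTP against PA), Scp2 (PA+NTP against Vehicle), Acaa1b (PA against Vehicle and both comparisons of LA with PA) and Bdh1 (LA+NTP against PA+NTP) held under 21 alternatives (11 settings and 10 left-out libraries). They did not hold under the recoded NOISeq rule, which also asks for 1.5-fold. The share of all genes that the recoded rule called is not given, so this is not read as a result about the members. With the GC trend removed, members called higher numbered 1 in PA and 0 in LA, and 0 were lower and 0 higher in LA+NTP against LA. The shares of all genes called with the trend removed are not given, so these counts are not read as particular to the members. The log2 fold change of Acads in LA+NTP against LA turned to -0.0125, and the replicate block with the GC trend removed gave the same counts (1, 0, 0 and 0) and -0.0121. Removing the trend takes out whatever moves with GC content. Members higher in PA were 1 under library-size scaling, a mean FPKM of at least 1 and limma with either pseudocount, and limma on log2(FPKM + 1) gave 1 higher in LA and 2 lower in PA+NTP against PA. Both limma fits gave 0 lower in LA against PA. With no filter, the difference between both NTP effects gave 1 member. With no fold threshold, the lower and higher counts were 10 and 6 (PA), 5 and 14 (LA), 17 and 2 (PA+NTP against PA), 14 and 8 (LA+NTP against LA), 16 called (PA+NTP against Vehicle), 2 and 11 (LA against PA) and 19 higher (LA+NTP against PA+NTP). The recoded NOISeq rule gave 0 members in every comparison of groups. The cause of these changes was not tested. The replicate block by label numbers changed no count of called members by over 1.5 times, and a block by the numbers in the names of the files, which differ from those of the labels, gave 2 lower in PA. The numbers pair no samples in the labels. Leaving out each library in turn gave 1 to 3 members higher in PA, 1 lower in PA, 0 lower and 2 to 3 higher in LA, 4 to 5 lower and 0 higher in PA+NTP against PA, 2 to 3 lower and 0 to 1 higher in LA+NTP against LA, 1 to 4 in PA+NTP against Vehicle, 0 in LA+NTP against Vehicle and in the difference of NTP effects, 0 to 1 lower and 1 to 3 higher in LA against PA, and 0 lower and 2 to 5 higher in LA+NTP against PA+NTP. Depth limited Acot1 most, with 13 to 74 expected counts a library.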

Other observations

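The 2 libraries of a group agreed least for PA+NTP, where the median ratio of the higher to the lower library over the 40 members was 1.10, and best for LA+NTP, where it was 1.05. The widest ratio in any group was 3.57, for Acot1 in LA. Over all 10 libraries, the ratio of the highest to the lowest FPKM was 3.34 for Acaa1b, 2.87 for Scp2, 2.41 for Bdh1 and 2.05 for Etfa, and 1.19 for Decr2, the lowest of the members.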
